A study of Homo sapiens with 12 samples.

Results

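Interferon-stimulated genes are the genes whose transcription a cell raises when interferon binds its receptors. The members described here are 41 such genes given as a fixed list, of which 40 could be measured, out of 19775 genes in the data. STAT2 was not analysed here. The 40 genes were read by 72 probe sets, 17 of them by a single probe set and the others by up to 4. The samples were 12 Affymetrix U133 Plus 2.0 arrays of HPB-ALL and KOPT-K1, established human lines of T-cell acute lymphoblastic leukaemia. There were 4 groups of 3 cultures, 1 array each: HPB-ALL with SAHM1, HPB-ALL with DMSO alone, KOPT-K1 with SAHM1 and KOPT-K1 with DMSO alone. SAHM1 was given at 20 µM and DMSO in the matching amount, both for 24 hours. SAHM1 is a stapled peptide modelled on mastermind-like, the co-activator of the NOTCH transcription complex, and the arrays address which genes change when that complex is targeted. Neither line was given interferon according to the labels, each line is a single leukaemia adapted to culture, and no other genotype or agent separates the groups.

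Type I interferons bind IFNAR1 and IFNAR2, and the receptor's kinases activate ISGF3, a complex of STAT proteins with IRF9 that binds the interferon-stimulated response element in the promoters of its targets. The products block viral entry, sense foreign RNA, degrade RNA or stop translation, and several of them (IRF7, IRF9, USP18, the RNA sensors) tune the response itself. Many cells keep a low tonic level of these transcripts without added interferon.

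The deposited values were ratios, each array set against the average of the DMSO arrays of its own line, and every value below is a log2 ratio on that scale or a difference of such values. A value of 0 is thus the DMSO mean of the line. Signal levels are lost on this scale, so the T-cell identity of the lines, the level of any gene and any contrast of HPB-ALL with KOPT-K1 under DMSO could not be read. A gene's change is the SAHM1 mean minus the DMSO mean ± its standard error, with n = 3 arrays per group. It was tested with limma over all 19775 genes and is said to have risen or fallen where the Benjamini-Hochberg adjusted p was under 0.05. The standard error of a change within a line had a median of 0.08, and 3 arrays per group limit the precision. The p-values measure the spread between cultures of the same experiment. In these bulk samples, fewer cells of a kind and less RNA per cell cannot be told apart.

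Control probe sets also differed between treatments, by values given here without a test. The SAHM1 minus DMSO difference of those for 18S ribosomal RNA was 2.19 in HPB-ALL and -0.26 in KOPT-K1. In HPB-ALL the SAHM1 arrays read 1.73, 1.89 and 1.35, against 1.05, -1.01 and -1.65 for the DMSO arrays. For the 18 spike-in probe sets the difference was -0.39 in HPB-ALL and 0.83 in KOPT-K1. For the 5′ minus 3′ value of the ACTB control probe sets, a sign of RNA integrity, it was -0.24 in HPB-ALL and -0.17 in KOPT-K1, while the same value for GAPDH was -0.0123 in HPB-ALL and 0.0089 in KOPT-K1. Adding the 18S value to the model left 0 of the 40 genes past the test in HPB-ALL and 0 for the difference between the lines by limma (6 and 9 had an unadjusted p under 0.05). Adding the spike value left 0 in KOPT-K1 and 0 for the difference (13 and 16). Treatment and these control values vary together across so few arrays, so their parts cannot be told apart in these fits.

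With SAHM1 a few interferon-stimulated genes fell in each line, and the changes were small. In HPB-ALL, 4 of the 40 fell (ISG15, IRF1, TRIM22 and IFITM1) and 0 rose, with 11 at an unadjusted p under 0.05 by limma. In KOPT-K1, 11 fell (SAMD9L, MX1, DDX60, XAF1, IRF7, SAMD9, IFI16, ISG20, IFIT2, EIF2AK2 and IFIH1) and 2 rose (IFIT3 and BST2). The 4 that fell in HPB-ALL were 10.0% of the members, against 4.38% of all genes that fell and 4.96% that rose there. The 11 that fell in KOPT-K1 were 27.5%, against 13.2% of all genes, and the 2 that rose were 5%, against 5.85%. The share that fell lay above that of all genes in both lines, and the share that rose in KOPT-K1 lay near it. The members were chosen with earlier results of these data known, so these shares are descriptions and not an independent test. In HPB-ALL the share rests on 4 genes. The median change of the 40 was -0.04 in HPB-ALL, where the median of all genes was -0.02, and -0.09 in KOPT-K1, where that of all genes was 0.00. Without DMSO replicate 1, 8 members passed in KOPT-K1 in place of 13.

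As genes, none of the 40 passed in both lines: 4 passed in HPB-ALL, 13 in KOPT-K1 and 23 in neither. Of all genes 9.34% passed in HPB-ALL and 19% in KOPT-K1. How many of all genes passed in both lines, or had the same sign in both, was not counted. Single probe sets of IFI16 and of IRF1 did fall in both lines. Changes had the same sign in both lines for 18 genes, below 0 in 15 and above 0 in 3. Across the 40 genes the changes in the 2 lines had a Pearson correlation of -0.33, and across all genes it was -0.14. These are descriptions across genes, which share arrays and probe chemistry and are not independent.

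**Figure D1:**
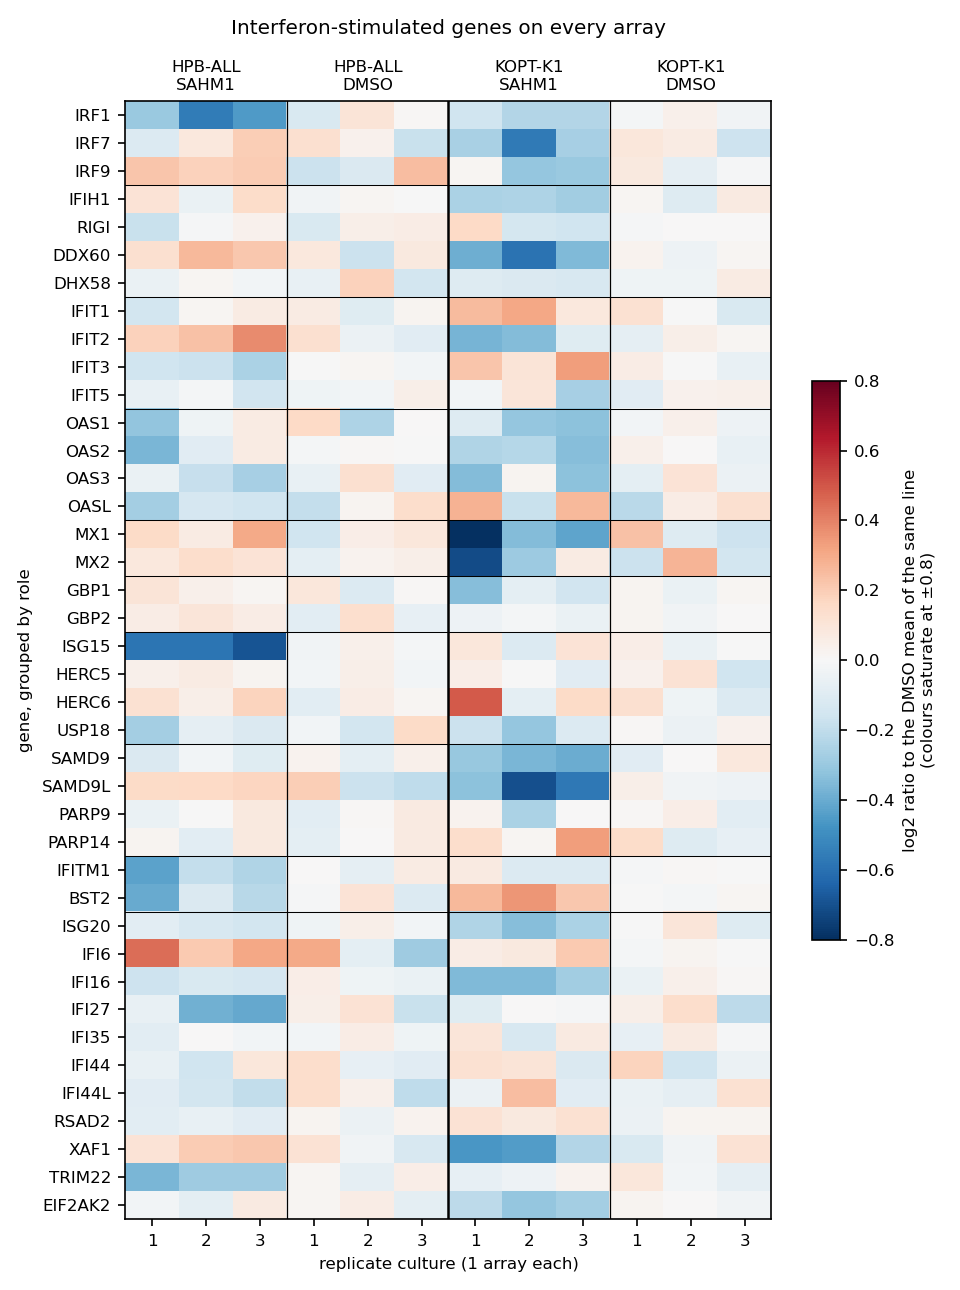
Log2 ratio of each of the 40 genes (rows, grouped by role) to the DMSO mean of its line on each of the 12 arrays (columns, 3 cultures per group). Blue is below the DMSO mean and red above it, with colours saturating at 0.8. ISG15 is low in the 3 HPB-ALL SAHM1 arrays, while DDX60, SAMD9L and XAF1 are low in the 3 KOPT-K1 SAHM1 arrays.

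**Figure D2:**
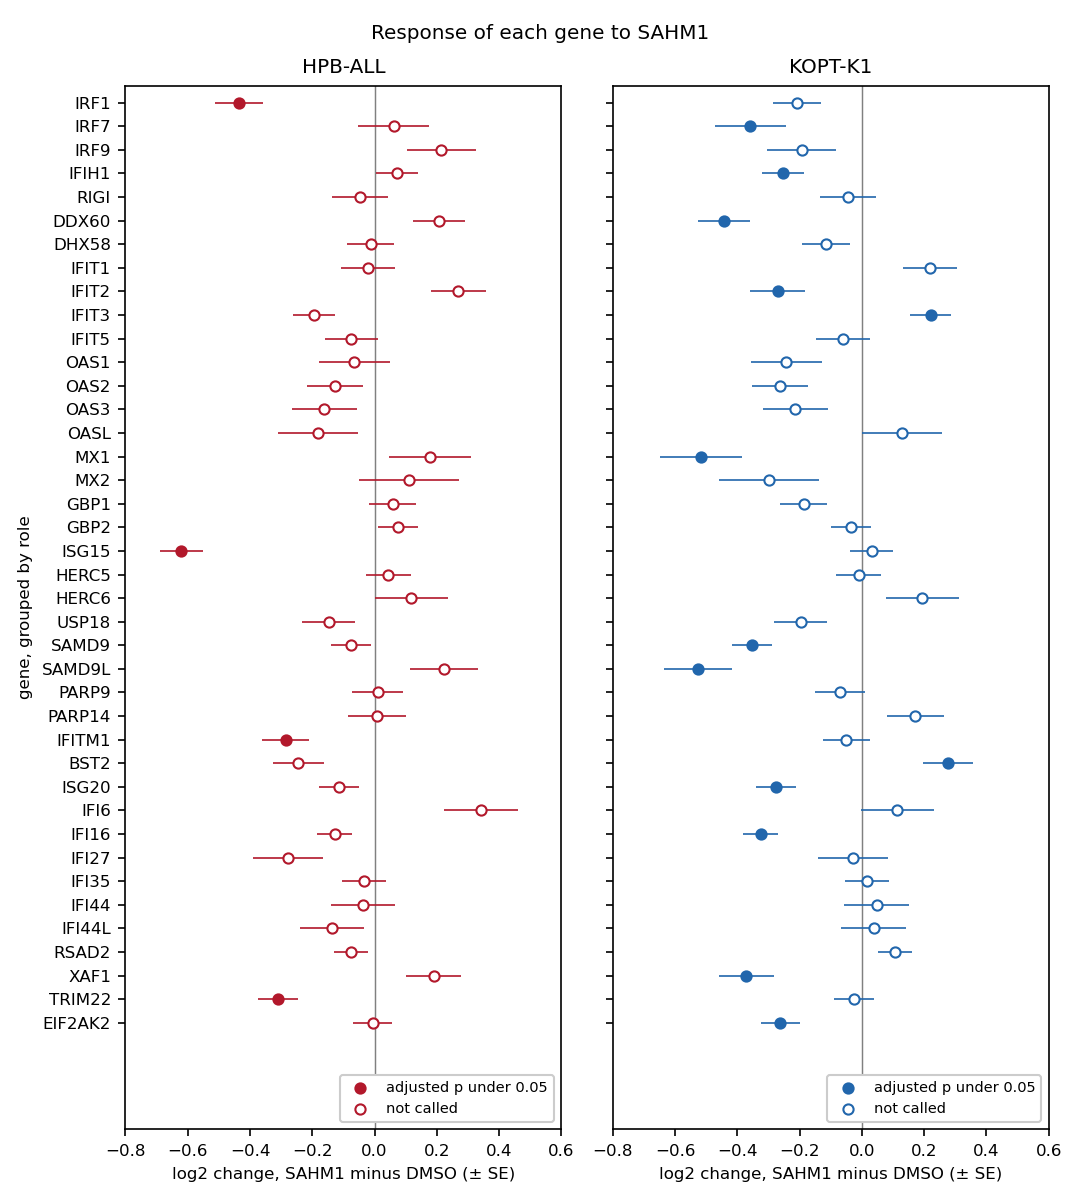
Change of each gene with SAHM1 (log2, SAHM1 minus DMSO) in HPB-ALL (left, red) and KOPT-K1 (right, blue), with bars of 1 standard error and n = 3 arrays per group. Filled points had an adjusted p under 0.05: 4 genes in HPB-ALL and 13 in KOPT-K1, with none filled on both sides.

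The lines were then compared directly, by subtracting the KOPT-K1 response from that of HPB-ALL. It was above 0 past the test for 6 genes, which were lower with SAHM1 in KOPT-K1 than in HPB-ALL (SAMD9L, MX1, DDX60, XAF1, IFIT2 and IFIH1). The difference was below 0 for 4 genes, with the lower response in HPB-ALL (ISG15, BST2, IFIT3 and TRIM22). These are 15.0% and 10.0% of the 40, against 11.4% and 5.41% of all genes. For the mean of both lines 6 genes fell (IRF1, ISG15, ISG20, IFI16, SAMD9 and TRIM22) and 0 rose, with 12 at an unadjusted p under 0.05 by limma. That is 15.0% lower, against 8.12% of all genes, while 3.16% of all genes rose. ISG15 and TRIM22 are in both sets. For ISG15 the mean change was -0.29 ± 0.05 (adjusted p = 0.00225) and the difference between the lines -0.65 ± 0.10 (adjusted p = 0.00113). For TRIM22 the mean change was -0.17 ± 0.04 (adjusted p = 0.0299) and the difference -0.29 ± 0.09 (adjusted p = 0.0463).

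**Figure D3:**
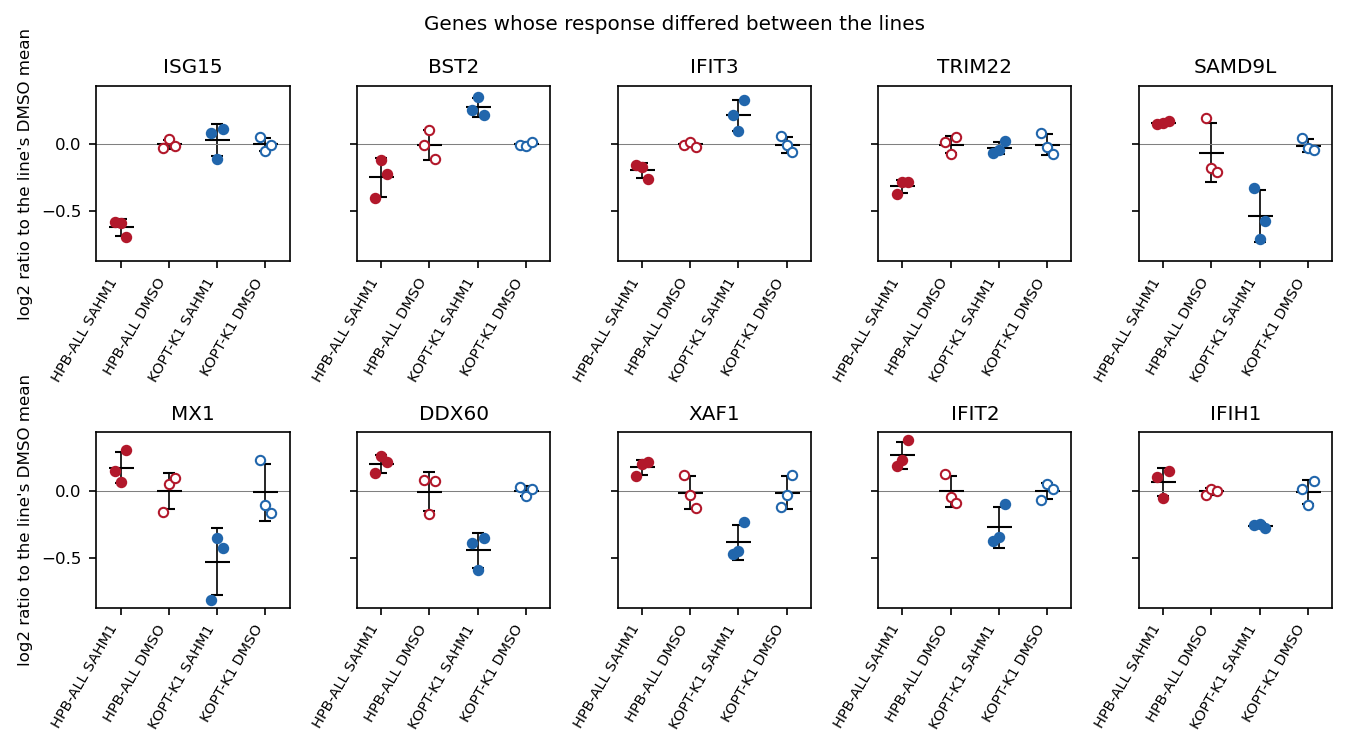
Log2 ratio to the line's DMSO mean on every array for the 10 genes whose response differed between the lines. Points are arrays, filled for SAHM1 and open for DMSO, red for HPB-ALL and blue for KOPT-K1, with the group mean and SD (n = 3). The ISG15 points of HPB-ALL with SAHM1 lie between -0.69 and -0.58, and those of SAMD9L in KOPT-K1 with SAHM1 between -0.71 and -0.33.

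The promoters of 5 of these 10 genes, with responses that differed in both directions, are shown for the presence or absence of 1 motif. The core of the interferon-stimulated response element was searched as GAAANNGAAA on either strand (TTTCNNTTTC on the other), with overlapping matches allowed, in RefSeq windows of build GRCh38.p14 from 250 bases before to 50 after each gene's start. Windows existed for 31 of the 40 genes (none for DHX58, GBP2, IFIT2, IRF7, MX2, OAS2, OASL, TRIM22 and USP18), and 22 of the 31 held a match in at least 1 window. That is 71.0%, against 4.38% of 27305 genes. By window it was 26 of 40, against 3.57% of 35116. The 5 below are given 5′ to 3′ up to the start, with the matches in capitals. ISG15 and BST2 had the lower response in HPB-ALL, and DDX60, IFIH1 and SAMD9L in KOPT-K1. ISG15 (chr1:1013247-1013496, plus strand) and BST2 (chr19:17405631-17405880, minus strand) each have 2 overlapping matches. DDX60 (chr4:168318753-168319002, minus strand) has 2 separate matches and IFIH1 (chr2:162318685-162318934, minus strand) has 3, of which 2 overlap. SAMD9L (chr7:93148386-93148635, minus strand) has none in its window.
ISG15: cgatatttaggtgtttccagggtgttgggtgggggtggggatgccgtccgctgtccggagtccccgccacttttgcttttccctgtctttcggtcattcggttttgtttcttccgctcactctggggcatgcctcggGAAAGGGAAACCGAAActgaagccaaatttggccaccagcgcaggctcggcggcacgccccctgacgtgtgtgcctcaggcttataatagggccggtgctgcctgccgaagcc
BST2: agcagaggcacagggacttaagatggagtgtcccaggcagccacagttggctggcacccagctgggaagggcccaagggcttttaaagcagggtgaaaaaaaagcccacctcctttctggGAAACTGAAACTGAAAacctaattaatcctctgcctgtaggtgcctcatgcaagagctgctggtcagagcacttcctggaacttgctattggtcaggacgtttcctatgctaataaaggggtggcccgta
DDX60: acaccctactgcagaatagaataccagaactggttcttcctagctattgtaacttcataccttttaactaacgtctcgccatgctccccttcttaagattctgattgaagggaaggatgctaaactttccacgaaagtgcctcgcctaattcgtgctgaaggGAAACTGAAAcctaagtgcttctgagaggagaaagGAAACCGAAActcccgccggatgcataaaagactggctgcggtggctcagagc
IFIH1: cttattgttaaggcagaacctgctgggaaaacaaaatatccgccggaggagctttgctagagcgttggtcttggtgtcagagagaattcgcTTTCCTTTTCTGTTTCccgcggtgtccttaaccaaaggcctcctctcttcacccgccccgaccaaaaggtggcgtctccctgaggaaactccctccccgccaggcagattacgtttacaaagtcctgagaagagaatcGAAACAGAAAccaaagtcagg
SAMD9L: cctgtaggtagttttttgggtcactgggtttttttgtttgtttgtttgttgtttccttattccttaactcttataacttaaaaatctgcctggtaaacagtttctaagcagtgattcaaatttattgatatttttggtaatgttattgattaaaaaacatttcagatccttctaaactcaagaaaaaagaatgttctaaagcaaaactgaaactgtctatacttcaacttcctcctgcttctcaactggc

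Matches were found both in genes that passed and in genes that did not. One stood in 12 of 17 genes that passed in neither line and have a window, in 2 of 3 that fell in HPB-ALL and in 6 of 9 that fell in KOPT-K1. Both genes that rose in KOPT-K1 have one, as do the 3 with the lower response in HPB-ALL and a window, and 3 of 5 with the lower response in KOPT-K1. A match is a run of letters and not a measured binding site, and a window without one says only that these letters are absent there.

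Among the transcription factors, IRF1 fell in HPB-ALL and IRF7 in KOPT-K1, and IRF9 passed in neither. IRF1 activates antigen presentation and antiviral genes and is itself strongly induced by interferon gamma. In HPB-ALL it read -0.30, -0.56 and -0.45 with SAHM1, against -0.12, 0.10 and 0.01 with DMSO. Every SAHM1 array lay below every DMSO array, and the change was -0.43 ± 0.08, or 1.35-fold lower (adjusted p = 0.00400). In KOPT-K1 it read -0.16, -0.24 and -0.23 with SAHM1, against -0.02, 0.04 and -0.03 with DMSO, again without overlap. That change of -0.21 ± 0.08 did not pass (adjusted p = 0.0773), and the responses of the lines were not shown to differ for the gene (-0.23 ± 0.11, adjusted p = 0.179). Its 2 probe sets both fell in HPB-ALL, at -0.51 and -0.36, but split in KOPT-K1, at -0.02 (adjusted p = 0.919) and -0.40 (adjusted p = 0.0135). For the first of them the difference between the lines passed (-0.49, adjusted p = 0.0328), and for the second it did not (0.04, adjusted p = 0.902). For the mean of the lines IRF1 fell by 0.32 on the log2 scale, the deepest mean change among the 40 (adjusted p = 0.00251).

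IRF7, which amplifies the induction of interferon genes, read -0.11, 0.08 and 0.20 with SAHM1 in HPB-ALL, against 0.13, 0.03 and -0.18 with DMSO, and the groups overlapped. The KOPT-K1 values of IRF7 were -0.26, -0.56 and -0.26 with SAHM1, against 0.09, 0.06 and -0.17 with DMSO. There the SAHM1 arrays all lay below the DMSO arrays, with replicate 2 the lowest. The change was -0.36 ± 0.11 (adjusted p = 0.0437). Leaving out DMSO replicate 1, DMSO replicate 2 or SAHM1 replicate 2 ended that call, and over the 6 arrays of the line left out in turn the change lay between -0.44 and -0.26, with an adjusted p of up to 0.157. Such ranges below likewise cover the 6 arrays of the line, or all 12 for the difference and the mean. IRF9, the DNA-binding subunit of ISGF3, stood at 0.21 ± 0.11 in HPB-ALL and -0.19 ± 0.11 in KOPT-K1, with overlapping groups in both and no call for the difference (adjusted p = 0.0933).

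Of the 4 cytosolic RNA sensors, 0 passed in HPB-ALL (1 at an unadjusted p under 0.05 by limma) and 2 fell in KOPT-K1. DDX60, a helicase that has been linked to signalling by RIGI, read 0.13, 0.26 and 0.22 with SAHM1 in HPB-ALL, against 0.08, -0.17 and 0.08 with DMSO. There the SAHM1 arrays all lay above the DMSO arrays, but the change of 0.21 ± 0.08 did not pass (adjusted p = 0.160). In KOPT-K1 DDX60 read -0.39, -0.59 and -0.35 with SAHM1, against 0.03, -0.04 and 0.01 with DMSO. The DMSO arrays were tightly grouped and the SAHM1 arrays lay well below them. DDX60 was 1.36-fold lower in KOPT-K1 (-0.44 ± 0.08, adjusted p = 0.00334). The responses differed by 0.65 ± 0.12 (adjusted p = 0.00316). DDX60 was read by 1 probe set.

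IFIH1 encodes MDA5, a sensor of long double-stranded RNA. It read 0.11, -0.05 and 0.15 with SAHM1 in HPB-ALL, against -0.03, 0.02 and 0.00 with DMSO, and the groups overlapped. In KOPT-K1 IFIH1 read -0.26, -0.25 and -0.28 with SAHM1, against 0.02, -0.10 and 0.07 with DMSO. The SAHM1 arrays were close together and lay below every DMSO array, and the change was -0.25 ± 0.07 (adjusted p = 0.0202). Of its 3 probe sets 1 passed on its own there (-0.47). The responses differed by 0.33 ± 0.10 (adjusted p = 0.0344). None of the 3 probe sets passed on its own for that difference (adjusted p = 0.177, 0.0899 and 0.552 by limma). The KOPT-K1 call was lost without DMSO replicate 1, DMSO replicate 3 or SAHM1 replicate 3, with changes between -0.30 and -0.22, with an adjusted p of up to 0.0756. The difference passed in 2 of the 12 fits with an array left out, those without KOPT-K1 DMSO replicate 2 or HPB-ALL SAHM1 replicate 2, and lay between 0.29 and 0.39, with an adjusted p of up to 0.0858.

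RIGI, the sensor of RNA with uncapped ends, stood at -0.05 ± 0.09 in HPB-ALL and -0.04 ± 0.09 in KOPT-K1. Its probe sets disagreed in KOPT-K1, where 1 of the 3 rose by 0.42 (adjusted p = 0.00370) and the others lay at -0.21 and -0.35 and did not pass. The name of the one that rose ends in _x_at, and such probe sets were left out in a refit described below. DHX58, which encodes LGP2, a regulator of both other sensors, stood at -0.01 ± 0.08 in HPB-ALL and -0.11 ± 0.08 in KOPT-K1.

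The IFIT proteins bind viral RNA that lacks the cap marks of host RNA, and IFIT2 and IFIT3 lay on opposite sides of 0 in each line. IFIT2 read 0.19, 0.23 and 0.38 with SAHM1 in HPB-ALL, against 0.13, -0.05 and -0.09 with DMSO. In KOPT-K1 IFIT2 read -0.37, -0.35 and -0.10 with SAHM1, against -0.07, 0.05 and 0.02 with DMSO. The groups did not overlap in either line. IFIT3 read -0.16, -0.17 and -0.26 with SAHM1 in HPB-ALL, against 0.00, 0.02 and -0.02 with DMSO. In KOPT-K1 IFIT3 read 0.22, 0.10 and 0.33 with SAHM1, against 0.06, 0.00 and -0.06 with DMSO. The groups of IFIT3 did not overlap either, so with SAHM1 IFIT2 lay above and IFIT3 below in HPB-ALL, and the reverse in KOPT-K1.

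In HPB-ALL neither change passed, at 0.27 ± 0.09 for IFIT2 (adjusted p = 0.0802) and -0.19 ± 0.07 for IFIT3 (adjusted p = 0.0985). In KOPT-K1 IFIT2 fell at the edge of the threshold (-0.27 ± 0.09, adjusted p = 0.0498) and IFIT3 rose (0.22 ± 0.07, adjusted p = 0.0377). The difference between the lines passed for both genes, at 0.54 ± 0.12 for IFIT2 (adjusted p = 0.0117) and -0.41 ± 0.10 for IFIT3 (adjusted p = 0.0112), also in all 12 fits with an array left out. The 2 genes are neighbours on chromosome 10, and each was read by 2 probe sets of the same sign within a line. Their sizes differed, at -0.06 and -0.48 for IFIT2 in KOPT-K1 and -0.32 and -0.07 for IFIT3 in HPB-ALL. The difference between the lines passed for 1 probe set of each gene. By limma the adjusted p was 0.238 and 0.00680 for those of IFIT2, and 0.0413 and 0.0614 for those of IFIT3. The KOPT-K1 call of IFIT2 was lost without any DMSO replicate and without SAHM1 replicate 1 or 2, with changes between -0.36 and -0.22, with an adjusted p of up to 0.145. That of IFIT3 was lost without DMSO replicate 2 or 3 or SAHM1 replicate 1 or 3, with changes between 0.16 and 0.28, with an adjusted p of up to 0.126. Over the 8 refits that kept all arrays, the KOPT-K1 call of IFIT2 held in 0 and that of IFIT3 in 2. IFIT1, the cap-sensing member, stood at -0.02 ± 0.09 in HPB-ALL and 0.22 ± 0.09 in KOPT-K1, and IFIT5 at -0.07 ± 0.09 and -0.06 ± 0.09.

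The OAS enzymes make short adenylate chains that switch on a latent ribonuclease. None of the 4 passed in either line as a gene, and 0 had an unadjusted p under 0.05 in HPB-ALL and 1 in KOPT-K1 by limma. In HPB-ALL OAS1 stood at -0.07, OAS2 at -0.13 and OAS3 at -0.16. The KOPT-K1 changes were -0.24, -0.26 and -0.21. They are neighbours on chromosome 12. In KOPT-K1 each had 1 probe set that fell (-0.62, -0.58 and -0.54, adjusted p = 0.0443, 0.0155 and 0.00858) and at least 1 that lay above 0, so the mean joins probe sets that disagreed. OASL, a relative without the enzyme activity, stood at -0.18 ± 0.13 in HPB-ALL and 0.13 ± 0.13 in KOPT-K1.

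MX1 and MX2 are dynamin-like GTPases that block incoming viruses and lie beside each other on chromosome 21. MX1 read 0.15, 0.07 and 0.30 with SAHM1 in HPB-ALL, against -0.16, 0.05 and 0.09 with DMSO, with overlap and a change of 0.18 ± 0.13. In KOPT-K1 MX1 read -0.81, -0.35 and -0.42 with SAHM1, against 0.23, -0.10 and -0.16 with DMSO. There the groups did not overlap, but SAHM1 replicate 1 lay far below the other SAHM1 arrays. MX1 was 1.43-fold lower in KOPT-K1 (-0.52 ± 0.13, adjusted p = 0.0162). The responses differed by 0.70 ± 0.19 (adjusted p = 0.0229). Without DMSO replicate 1 or SAHM1 replicate 1 the KOPT-K1 call was lost, with changes between -0.61 and -0.38, with an adjusted p of up to 0.0685. The difference was lost without KOPT-K1 DMSO replicate 1 or HPB-ALL SAHM1 replicate 3, and lay between 0.55 and 0.79, with an adjusted p of up to 0.0594.

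MX2 had a change of 0.11 ± 0.16 in HPB-ALL that did not pass. It had the widest spread of the 40 among the KOPT-K1 SAHM1 arrays (SD 0.39, n = 3), at -0.72, -0.29 and 0.06, and its change there of -0.30 ± 0.16 did not pass either. Guanylate-binding proteins are GTPases that attack vacuoles holding pathogens. GBP1 stood at 0.06 ± 0.08 in HPB-ALL and -0.19 ± 0.08 in KOPT-K1 as a gene, the mean of 4 probe sets that split in KOPT-K1. Of these, 1 fell by 0.58 and another by 0.44 on the log2 scale, while a further one rose by 0.58 (adjusted p = 0.00335, 0.00848 and 0.0325). It was the one gene of the 40 with probe sets called in opposite directions. GBP2 stood at 0.08 ± 0.06 in HPB-ALL and -0.04 ± 0.06 in KOPT-K1.

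ISG15 showed the deepest fall of the 40 in HPB-ALL, while its groups overlapped in KOPT-K1. It encodes a ubiquitin-like protein that is joined to other proteins or secreted. The gene was read by 1 probe set. In HPB-ALL it read -0.58, -0.59 and -0.69 with SAHM1, against -0.03, 0.04 and -0.01 with DMSO. Both groups were tight and far apart, and ISG15 was 1.54-fold lower (-0.62 ± 0.07, adjusted p = 0.000262). In KOPT-K1 it read 0.09, -0.11 and 0.11 with SAHM1, against 0.05, -0.05 and 0.00 with DMSO. The change there was 0.03 ± 0.07 (adjusted p = 0.796), and the responses differed by -0.65 ± 0.10 (adjusted p = 0.00113). With the 18S value in the model the HPB-ALL change was -0.59 but did not pass (adjusted p = 0.0892).

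Of the members that attach or remove ISG15, HERC5, HERC6 and USP18 passed in neither line. HERC5, its main ligase, stood at 0.04 ± 0.07 in HPB-ALL and -0.01 ± 0.07 in KOPT-K1. HERC6, the relative that does this work in mice, stood at 0.12 ± 0.12 and 0.19 ± 0.12. USP18, which removes ISG15 and restrains the interferon receptor, lay below 0 in both lines, at -0.15 ± 0.09 and -0.20 ± 0.09. USP18 did not pass in either (adjusted p = 0.360 and 0.129), although its KOPT-K1 groups did not overlap.

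SAMD9 and SAMD9L are neighbouring genes on chromosome 7 whose proteins restrain translation and growth, and both fell in KOPT-K1. SAMD9L read 0.16, 0.16 and 0.17 with SAHM1 in HPB-ALL, against 0.19, -0.17 and -0.20 with DMSO. DMSO replicate 1 overlapped the SAHM1 arrays, and the change of 0.22 ± 0.11 did not pass. In KOPT-K1 SAMD9L read -0.33, -0.71 and -0.57 with SAHM1, against 0.04, -0.03 and -0.04 with DMSO. The SAHM1 arrays all lay below the DMSO arrays, and the 1.44-fold fall was the deepest of the 40 in that line (-0.53 ± 0.11, adjusted p = 0.00541). SAMD9L had the largest difference between the lines among the 40 (0.75 ± 0.15, adjusted p = 0.00598). The 3 probe sets of SAMD9L lay between -0.22 and 0.75 in HPB-ALL and between -0.64 and -0.44 in KOPT-K1, so they agreed in sign in KOPT-K1 only. None of the 3 passed on its own for the difference between the lines. Their differences were 0.42, 0.58 and 1.25 (adjusted p = 0.208, 0.194 and 0.0691 by limma). The probe set at 1.25 had HPB-ALL DMSO arrays spread at 0.78, -0.82 and -0.49.

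SAMD9 read -0.11, -0.02 and -0.10 with SAHM1 in HPB-ALL, against 0.03, -0.08 and 0.04 with DMSO, with overlap. In KOPT-K1 SAMD9 read -0.30, -0.37 and -0.39 with SAHM1, against -0.09, 0.00 and 0.09 with DMSO. There the groups were apart, both probe sets fell, and the change was -0.35 ± 0.06 (adjusted p = 0.00290). The lines were not shown to differ for SAMD9 (0.28 ± 0.09, adjusted p = 0.0557), and its mean over the lines fell (-0.21 ± 0.05, adjusted p = 0.00971). PARP9 and PARP14, which transfer ADP-ribose and act in interferon signalling, stood at 0.01 and 0.01 in HPB-ALL and at -0.07 and 0.17 in KOPT-K1. Of the 2 PARP14 probe sets 1 rose by 0.55 in KOPT-K1 (adjusted p = 0.0259), against -0.21 for the other.

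Of the membrane restriction factors, IFITM1 fell in HPB-ALL and BST2 rose in KOPT-K1. IFITM1 hinders the fusion of viral with cell membranes. It read -0.43, -0.19 and -0.24 with SAHM1 in HPB-ALL, against 0.00, -0.07 and 0.07 with DMSO, without overlap and with replicate 1 the lowest. It was 1.22-fold lower (-0.29 ± 0.08, adjusted p = 0.0337). That call was lost without any DMSO replicate and without SAHM1 replicate 1 or 3, with changes between -0.33 and -0.21, with an adjusted p of up to 0.132. In KOPT-K1 IFITM1 read 0.07, -0.11 and -0.11 with SAHM1, against -0.01, 0.01 and 0.00 with DMSO, with overlap.

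BST2 encodes tetherin, which holds budding virus at the cell surface. It read -0.40, -0.11 and -0.22 with SAHM1 in HPB-ALL, against -0.01, 0.11 and -0.11 with DMSO. The groups there barely parted, and the change of -0.24 ± 0.08 did not pass (adjusted p = 0.0826). In KOPT-K1 BST2 read 0.26, 0.35 and 0.22 with SAHM1, against 0.00, -0.02 and 0.02 with DMSO. The SAHM1 arrays lay above the tight DMSO arrays, and BST2 was 1.21-fold higher (0.28 ± 0.08, adjusted p = 0.0318). The difference between the lines did pass (-0.52 ± 0.11, adjusted p = 0.00885) and held in all 12 fits with an array left out. The rise in KOPT-K1 was lost without any DMSO replicate and without SAHM1 replicate 1 or 2, with changes between 0.24 and 0.31, with an adjusted p of up to 0.103.

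Among the other 11 effectors, TRIM22 fell in HPB-ALL, and XAF1, IFI16, ISG20 and EIF2AK2 fell in KOPT-K1. TRIM22, a ubiquitin ligase that restricts viruses, read -0.37, -0.28 and -0.28 with SAHM1 in HPB-ALL, against 0.02, -0.07 and 0.06 with DMSO. The groups lay apart, and TRIM22 was 1.24-fold lower (-0.31 ± 0.06, adjusted p = 0.00932). In KOPT-K1 it read -0.06, -0.04 and 0.03 with SAHM1, against 0.09, -0.02 and -0.07 with DMSO, with overlap. The difference between the lines was -0.29 ± 0.09 (adjusted p = 0.0463). It passed in 2 of the 12 fits with an array left out, those without KOPT-K1 DMSO replicate 1 or HPB-ALL DMSO replicate 2, and lay between -0.33 and -0.25, with an adjusted p of up to 0.103. The fall for the mean of the lines (-0.17 ± 0.04) passed in 3 of the 12, those without KOPT-K1 DMSO replicate 3, KOPT-K1 SAHM1 replicate 3 or HPB-ALL DMSO replicate 2, and lay between -0.19 and -0.15, with an adjusted p of up to 0.0794.

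XAF1 promotes apoptosis by binding the caspase inhibitor XIAP. It read 0.11, 0.20 and 0.21 with SAHM1 in HPB-ALL, against 0.12, -0.03 and -0.13 with DMSO. The groups overlapped there, and all 3 probe sets lay above 0. In KOPT-K1 XAF1 read -0.47, -0.45 and -0.24 with SAHM1, against -0.12, -0.03 and 0.12 with DMSO. No SAHM1 array overlapped the DMSO arrays, and XAF1 was 1.29-fold lower (-0.37 ± 0.09, adjusted p = 0.0114). Of its 3 probe sets, 2 fell in KOPT-K1 (-0.76 and -0.58) and 1 lay at 0.23 without passing. The responses of the lines differed by 0.56 ± 0.12 (adjusted p = 0.00912).

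IFI16, a nuclear sensor of DNA, lay below DMSO with SAHM1 in both lines. It read -0.16, -0.12 and -0.13 with SAHM1 in HPB-ALL, against 0.05, -0.03 and -0.05 with DMSO. In KOPT-K1 IFI16 read -0.35, -0.35 and -0.28 with SAHM1, against -0.05, 0.04 and 0.01 with DMSO. Neither pair of groups overlapped. The change of -0.13 ± 0.06 in HPB-ALL did not pass as a gene, while IFI16 fell in KOPT-K1 (-0.33 ± 0.06, adjusted p = 0.00216). Of its 3 probe sets, 2 fell in both lines, by 0.31 and 0.34 on the log2 scale in HPB-ALL and by 0.25 and 0.32 in KOPT-K1. The remaining probe set lay at 0.26 in HPB-ALL and -0.40 in KOPT-K1 and did not pass in either. For that probe set the difference between the lines passed (0.66, adjusted p = 0.0441 by limma). For the 2 that fell it lay at -0.05 and -0.02 and did not pass.

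ISG20 is a ribonuclease that trims viral RNA, and it too lay below DMSO in both lines. It read -0.08, -0.13 and -0.15 with SAHM1 in HPB-ALL, against -0.03, 0.04 and -0.02 with DMSO. In KOPT-K1 ISG20 read -0.24, -0.34 and -0.25 with SAHM1, against 0.00, 0.10 and -0.10 with DMSO. The groups were apart in both lines, and the change did not pass in HPB-ALL (-0.12 ± 0.06, adjusted p = 0.334) and passed in KOPT-K1 (-0.28 ± 0.06, adjusted p = 0.0107). The lines were not shown to differ for ISG20 (adjusted p = 0.254) or IFI16 (adjusted p = 0.114) as genes. For the mean of the lines both fell, ISG20 with a change of -0.20 ± 0.05 (adjusted p = 0.0149) and IFI16 with -0.23 ± 0.04 (adjusted p = 0.00335). EIF2AK2 encodes PKR, which stops translation when it binds double-stranded RNA. It read -0.02, -0.08 and 0.07 with SAHM1 in HPB-ALL, against 0.02, 0.06 and -0.08 with DMSO, with overlap and a change of -0.01 ± 0.06. In KOPT-K1 EIF2AK2 read -0.21, -0.31 and -0.27 with SAHM1, against 0.02, 0.00 and -0.03 with DMSO. That was a fall without overlap (-0.26 ± 0.06, adjusted p = 0.0117).

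The other 6 of these effectors passed in neither line. IFI6, an inhibitor of apoptosis, had the highest change of the 40 in HPB-ALL at 0.34 ± 0.12 (adjusted p = 0.0984), with its SAHM1 arrays at 0.45, 0.21 and 0.31 and its DMSO arrays spread at 0.30, -0.08 and -0.28. IFI27 lay at -0.28 ± 0.11 in HPB-ALL and -0.03 ± 0.11 in KOPT-K1. RSAD2, whose product viperin makes a chain-ending nucleotide, lay at -0.08 ± 0.05 in HPB-ALL and 0.11 ± 0.05 in KOPT-K1. IFI35 stood at -0.03, IFI44 at -0.04 and IFI44L at -0.14 in HPB-ALL, and at 0.02, 0.05 and 0.04 in KOPT-K1.

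Single probe sets were also tested. Of the 72 probe sets, 6 passed in HPB-ALL, all lower, and 24 in KOPT-K1, of which 20 were lower and 4 higher. These are 8.33% and 33.3%, against 5.15% and 14.6% of all 54613 probe sets called in either direction. The 4 that rose in KOPT-K1 read RIGI, IFIT3, PARP14 and GBP1. BST2 and IRF7 in KOPT-K1 and IFITM1 in HPB-ALL had 1 probe set each and passed as genes. Their probe sets did not pass when adjusted over all probe sets (adjusted p = 0.0595, 0.0634 and 0.0814 by limma). The 1 probe set of TRIM22 likewise did not pass for the difference between the lines or for their mean (adjusted p = 0.110 and 0.0796 by limma). Of the 23 genes with more than 1 probe set, 11 had probe sets of both signs in HPB-ALL and 9 in KOPT-K1. In HPB-ALL 1 passed without DMSO replicate 2 or SAHM1 replicate 2, 2 without DMSO replicate 3 or SAHM1 replicate 3, and 3 without SAHM1 replicate 1. In KOPT-K1 15 passed without DMSO replicate 1.

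**Figure D4:**
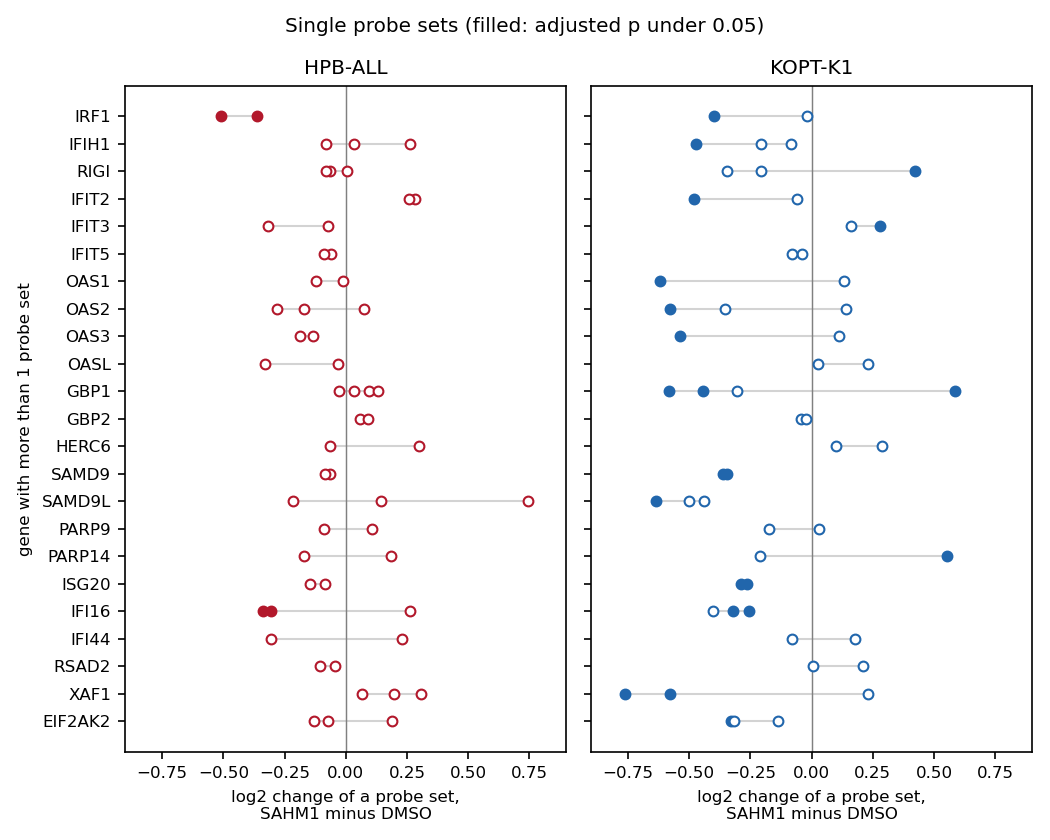
Change of each probe set (log2, SAHM1 minus DMSO) for the 23 genes read by more than 1, in HPB-ALL (left, red) and KOPT-K1 (right, blue). Filled points had an adjusted p under 0.05. The GBP1 probe sets in KOPT-K1 span -0.58 to 0.58, while those of SAMD9 and ISG20 lie close together.

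Genes of 1 family often sit side by side in the genome, and 17 of the 40 form 9 adjacent pairs by the RefSeq gene order. The members of a pair had opposite signs in 2 of the 9 pairs in HPB-ALL and in 3 in KOPT-K1. IFIT2 with IFIT3 was split in both lines. SAMD9 with SAMD9L was split in HPB-ALL, and IFIT1 with IFIT5 and HERC6 with HERC5 in KOPT-K1.

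The signalling genes upstream of the 40 were read as separate lists, and their measured members are counted beside the shares of all genes. In HPB-ALL 4.96% of all genes rose and 4.38% fell, and in KOPT-K1 5.85% rose and 13.2% fell. The lists were refitted with quantile normalization, the 18S value and the spike value, a choice made after seeing the data, and no gene called in a list turned sign in these fits. Of 18 interferon ligands, 0 passed in HPB-ALL (3 at an unadjusted p under 0.05 by limma), and 8 rose and 0 fell in KOPT-K1. The 8 were 44.4% of the list, against 5.85% of all genes. Interferon alpha genes made up 6 of the 8. IFNA4 had a change of -0.15 ± 0.09 in HPB-ALL that did not pass. It read 0.75, 0.61 and 0.70 with SAHM1 in KOPT-K1, against 0.05, -0.26 and 0.17 with DMSO, a change of 0.70 ± 0.09 (adjusted p = 0.000386). In HPB-ALL IFNA14 stood at -0.03, IFNA7 at -0.23 and IFNA17 at 0.01. In KOPT-K1 they rose, with 0.66 ± 0.10 for IFNA14, 0.56 ± 0.08 for IFNA7 and 0.49 ± 0.09 for IFNA17. With quantile normalization 0 ligands passed in KOPT-K1 (7 at an unadjusted p under 0.05 by limma), with the spike value 3 rose and with the 18S value 8 rose. The difference between the lines passed for 5 of the 18, all with the higher response in KOPT-K1. That is 27.8%, against 5.41% of all genes. Each of these genes had 1 probe set, the interferon alpha genes are near-identical copies whose probes can cross-react, and whether any of them is above background cannot be read from ratios.

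Of 6 receptor chains, IFNAR1, the type I receptor subunit, fell in KOPT-K1 and IFNLR1, the interferon lambda receptor, rose. Called in either direction were 16.7% of the list in HPB-ALL and 33.3% in KOPT-K1, against 9.34% and 19% of all genes. IFNAR1 stood at 0.11 ± 0.06 in HPB-ALL. The KOPT-K1 values of IFNAR1 were -0.43, -0.27 and -0.39 with SAHM1, against 0.05, -0.04 and -0.02 with DMSO. Its groups were apart there, with a change of -0.36 ± 0.06 (adjusted p = 0.00198). The difference between the lines passed (adjusted p = 0.00383). IFNLR1 stood at -0.11 in HPB-ALL and at 0.45 ± 0.08 in KOPT-K1 (adjusted p = 0.00186). Neither receptor passed in KOPT-K1 with quantile normalization or with the spike value. IFNGR1, for interferon gamma, rose in HPB-ALL (0.21 ± 0.06, adjusted p = 0.0409), a call lost with quantile normalization, the 18S value or the spike value. IFNAR2 stood at 0.15 ± 0.06 in HPB-ALL and -0.04 ± 0.06 in KOPT-K1. The receptor kinases JAK1, JAK2 and TYK2 did not pass in either line, at 0.11, 0.19 and -0.13 in HPB-ALL and -0.19, -0.06 and -0.14 in KOPT-K1 (0 and 1 at an unadjusted p under 0.05 by limma).

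Of 7 negative regulators, 2 fell in HPB-ALL and 0 passed in KOPT-K1 (1 at an unadjusted p under 0.05 by limma). The 2 were 28.6% of the list, against 4.38% of all genes that fell there. They were PTPN6, a phosphatase that damps receptor kinases (-0.45 ± 0.10, adjusted p = 0.0120), and TRIM27 (-0.26 ± 0.07, adjusted p = 0.0408). Neither passed with quantile normalization, the 18S value or the spike value. Among 19 genes of nucleic acid sensing and interferon induction, 3 fell in HPB-ALL and 7 in KOPT-K1, and 0 rose in either. That is 15.8% and 36.8% lower, against 4.38% and 13.2% of all genes. The HPB-ALL genes were MYD88, the adaptor of most toll-like receptors (-0.47 ± 0.06, adjusted p = 0.000600), TRAF3 (-0.39 ± 0.09) and TRIM25, which activates RIGI (-0.33 ± 0.08). The KOPT-K1 genes included TLR3, the endosomal sensor of double-stranded RNA (-0.61 ± 0.06, adjusted p = 4.57e-05). They also included TRIM56 (-0.57 ± 0.09), MAVS, the mitochondrial adaptor of RIGI and MDA5 (-0.34 ± 0.07), and TLR7 (-0.34 ± 0.08). TLR3 stood at -0.14 in HPB-ALL. In KOPT-K1 it read -0.65, -0.62 and -0.56 with SAHM1, against -0.03, -0.01 and 0.04 with DMSO.

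Of 36 further interferon-induced effectors, 9 fell and 1 rose in HPB-ALL, and 13 fell and 0 rose in KOPT-K1. The falls were 25% and 36.1% of the list, against 4.38% and 13.2% of all genes. LY6E, a membrane protein that restricts coronaviruses, read -0.77, -0.95 and -0.75 with SAHM1 in HPB-ALL, against -0.04, 0.09 and -0.05 with DMSO. In KOPT-K1 LY6E read -0.49, -0.42 and -0.69 with SAHM1, against 0.07, 0.13 and -0.23 with DMSO. It lay lower without overlap in both lines, and the changes were -0.82 ± 0.10 and -0.52 ± 0.10 (adjusted p = 0.000524 and 0.00386). PNPT1 (-0.31 in HPB-ALL and -0.36 in KOPT-K1), LAP3 (-0.31 and -0.37) and MOV10 (-0.36 and -0.30) also fell in both, the last pair named after their values were seen.

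Others of this list passed in a single line. In HPB-ALL LGALS3BP, a secreted glycoprotein, fell (-0.58 ± 0.08), as did UBE2L6, the enzyme that hands ISG15 to its ligases (-0.40 ± 0.06). In KOPT-K1 they stood at -0.06 and 0.04, and the lines differed for both (adjusted p = 0.00715 and 0.00510). GBP5 stood at 0.05 and APOL6 at 0.29 in HPB-ALL, and both fell in KOPT-K1 (-0.57 ± 0.07 and -0.58 ± 0.09). The lines differed for these as well (adjusted p = 0.00224 and 0.000738). EPSTI1 was the single gene of the list that rose, by 0.32 ± 0.06 in HPB-ALL.

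Of 16 antigen presentation genes, 3 fell and 1 rose in HPB-ALL, and 1 fell and 2 rose in KOPT-K1. Called in either direction were 25% in HPB-ALL, against 9.34% of all genes. In KOPT-K1 it was 18.8%, near the 19% of all genes, with 12.5% higher and 6.25% lower, against 5.85% and 13.2%. HLA-B, a class I heavy chain, read -0.31, -0.57 and -0.32 with SAHM1 in HPB-ALL, against -0.05, 0.06 and -0.02 with DMSO. In KOPT-K1 it read 0.40, 0.39 and 0.37 with SAHM1, against 0.07, -0.01 and -0.06 with DMSO. HLA-B thus fell in HPB-ALL (-0.40 ± 0.07, adjusted p = 0.00586) and rose in KOPT-K1 (0.39 ± 0.07, adjusted p = 0.00386). HLA-C did likewise (-0.24 ± 0.07 and 0.32 ± 0.07, adjusted p = 0.0380 and 0.00584), and the lines differed for both (adjusted p = 0.000616 and 0.00203). Probes for class I heavy chains can cross-react. B2M, their shared light chain, rose in HPB-ALL (0.34 ± 0.09) and PSMB10, a subunit of the immunoproteasome, fell there (-0.24 ± 0.07), while ERAP1, a peptide-trimming enzyme, fell in KOPT-K1 (-0.28 ± 0.08).

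These counts changed with the scaling and the added control values. Quantile normalization gives every array 1 distribution, although values spread more widely on the SAHM1 arrays than on the DMSO arrays. It thus narrows the SAHM1 arrays and widens the DMSO arrays, so a call lost under it cannot decide whether the change stands. Over the sensing genes, the further effectors and antigen presentation, quantile normalization left 1, 3 and 1 genes called in HPB-ALL, all lower, and 1, 0 and 0 in KOPT-K1. With the 18S value 0 genes of any of the 7 lists passed in HPB-ALL (13 at an unadjusted p under 0.05 by limma). In KOPT-K1 the 18S value left 6 sensing genes and 11 further effectors, all lower, and antigen presentation with 2 higher and 1 lower. With the spike value 2 sensing genes were lower in HPB-ALL and 3 in KOPT-K1. The further effectors then had 6 lower and 1 higher in HPB-ALL and 1 lower in KOPT-K1. Of antigen presentation the spike value left 1 lower in HPB-ALL and 0 called in KOPT-K1 (3 at an unadjusted p under 0.05 by limma), so the rises of HLA-B and HLA-C there were lost with it, as with quantile normalization.

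**Figure D5:**
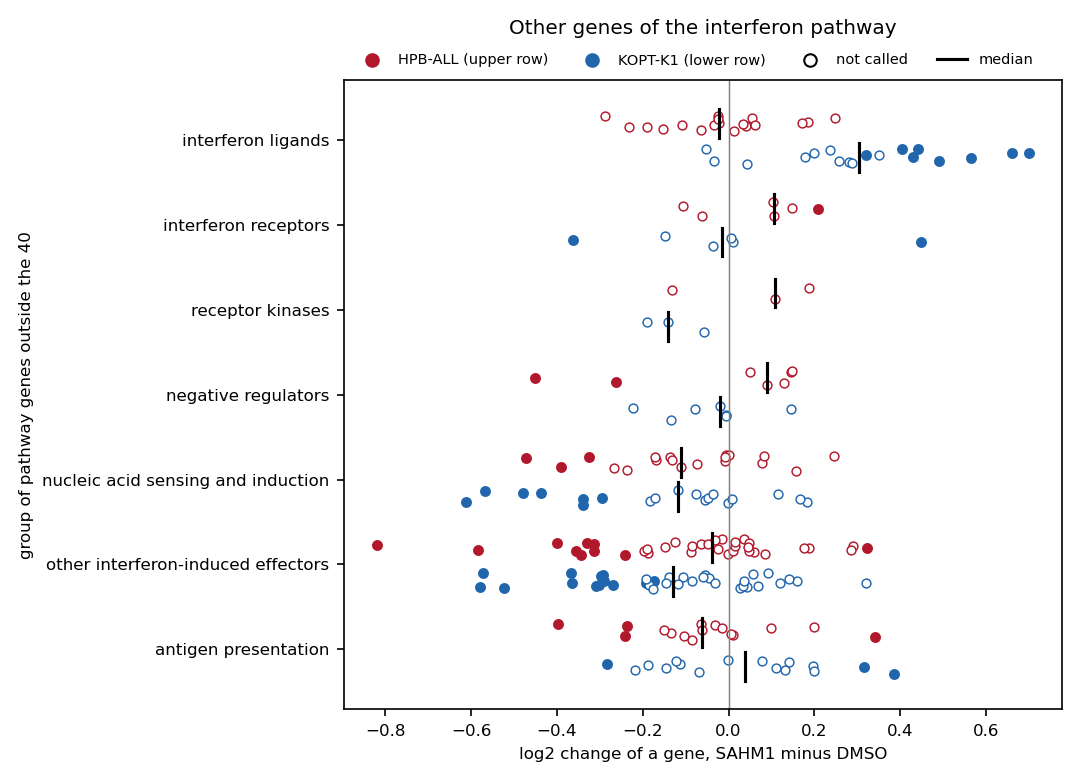
Change of each measured pathway gene outside the 40 (log2, SAHM1 minus DMSO), by list, with HPB-ALL in red above KOPT-K1 in blue. Filled points had an adjusted p under 0.05, and the black bar is the median of the list. The ligands sit to the right in KOPT-K1, with 8 of 18 filled, and around 0 in HPB-ALL.

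Markers of other cell types that a culture could hold were read as well, with the single genes named after their values were seen. Of 5 monocyte and macrophage markers, 0 passed in either line (0 at an unadjusted p under 0.05 by limma). Of 6 plasmacytoid dendritic cell markers, 0 passed in HPB-ALL (1 at an unadjusted p under 0.05 by limma) and 1 fell in KOPT-K1 (GZMB, -0.60). Of 4 B-cell markers, 0 passed in HPB-ALL (0 at an unadjusted p under 0.05 by limma) and 1 rose in KOPT-K1 (MS4A1, 0.32). Of 5 natural killer cell markers, 2 fell in HPB-ALL (NKG7, -0.84, and KLRF1, -0.28) and 0 passed in KOPT-K1 (0 at an unadjusted p under 0.05 by limma). Of 10 T-lineage genes, 2 fell and 1 rose in HPB-ALL and 1 fell in KOPT-K1. That is 30% and 10% called, against 9.34% and 19% of all genes. Of the natural killer markers 40% were called in HPB-ALL. In KOPT-K1 16.7% of the plasmacytoid dendritic and 25% of the B-cell markers were called. These lists are short, so such shares rest on 1 or 2 genes. The part of such cells in the changes of the 40 genes was not tested.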

How the data were processed

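Gene expression was read on 12 Affymetrix U133 Plus 2.0 arrays, 3 cultures in each of 4 groups. Per the submitters' processing notes the authors used RMA, with the version not given in the sources used here. What they deposited are linear ratios to the DMSO mean of the same line: that mean was 1 in 54675 of 54675 probe sets in both lines (tolerance 1e-06), and ratios ran from 0.0827 to 6.98. No arrays were identical.

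Ratios were log2-transformed without a pseudocount. Of 54675 probe sets 41091 had 1 symbol in the platform annotation, 1801 had several and 11783 had none or were not listed; 62 were controls. Averaging the probe sets of each symbol gave 19775 genes. The planned filter on low values was not used, since ratios hold no levels.

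Linear models in limma 3.58.1 (R 4.3.3, two-sided) took all 12 arrays and 1 term per group, leaving 8 residual degrees of freedom, and were tested on simulated data. Contrasts were SAHM1 against DMSO in HPB-ALL, in KOPT-K1 and for their mean, and the response of HPB-ALL minus that of KOPT-K1. P-values were adjusted by Benjamini-Hochberg over all genes. Every measured member is given; of each pathway list up to 4 genes per line with the smallest adjusted p are named, and IFNAR1, IFNAR2, JAK1 and TYK2 always. Members and lists were chosen with earlier results of these data known. Alternatives were quantile normalization, probe set choice, covariates, a replicate block, array weights, own-line fits and each array left out. Promoters came from RefSeq.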

Additional observations from a re-analysis of the deposited data

Results flagged for a closer look

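The 10 results below stand out because the response to SAHM1 differed between the 2 lines, by limma's test of the response of HPB-ALL minus that of KOPT-K1 (log2, n = 3 arrays per group). In 6 genes the difference was above 0: it was 0.75 for SAMD9L, 0.70 for MX1, 0.65 for DDX60, 0.56 for XAF1, 0.54 for IFIT2 and 0.33 for IFIH1. In 4 genes it was below 0, at -0.65 for ISG15, -0.52 for BST2, -0.41 for IFIT3 and -0.29 for TRIM22. Of these 10, DDX60, IFIT2, IFIT3 and BST2 had SAHM1 arrays wholly on opposite sides of the DMSO arrays in the 2 lines. So did RSAD2, whose difference did not pass, and how many of all genes did so was not counted. The 10 were chosen by the difference on these same arrays, so this is a description and not a test. For BST2 in HPB-ALL the highest SAHM1 array, at -0.114, lay just below the lowest DMSO array, at -0.112. For IFIT2 in KOPT-K1 these arrays were also close, at -0.095 and -0.070. The differences of SAMD9L, DDX60, XAF1, IFIT2, ISG15, BST2 and IFIT3 passed in each of the 12 fits with an array left out. Those of IFIH1 and TRIM22 passed in 2 of the 12 and that of MX1 in 10. With the 18S value or the spike value in the model 0 of the 10 differences passed. With quantile normalization that of ISG15 alone passed.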

How the results depend on the processing

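No called result of a member reversed. Over the 236 refits of called results under the alternatives that keep all arrays, 140 kept their call and 96 lost it, and of 396 refits with an array left out 329 kept it and 67 lost it.

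Under quantile normalization, which gives every array one distribution although the SD over all genes was 0.196 to 0.267 on SAHM1 arrays and 0.0943 to 0.116 on DMSO arrays, the members called were 2 in HPB-ALL, 0 in KOPT-K1 (6 at an unadjusted p under 0.05 by limma), 1 for the mean and 1 for the difference, and all genes called were 417, 136, 294 and 211. Their probe sets called were 1 in HPB-ALL and 0 in KOPT-K1 (14 at an unadjusted p under 0.05 by limma). Leaving out probe sets that end in _x_at or _s_at, 32 members could be tested and 1, 8, 3 and 6 were called in the same order, with 1019, 2497 and 1239 of all genes in HPB-ALL, in KOPT-K1 and for the mean. ISG15, TRIM22, IFITM1, DDX60, IRF7 and IFI16 were read only by such probe sets, so their calls could not be tested this way. Of the 4 called in HPB-ALL, IRF1 could be tested and kept its call. Of 21 called results that could be tested, 18 kept their call and 3 lost it. With the 18S value as a covariate the members called were 0 in HPB-ALL (6 at an unadjusted p under 0.05 by limma), 2 for the mean and 0 for the difference (9), all genes 52, 752 and 324, and probe sets in HPB-ALL 0 (5). With the spike value the members called were 0 in KOPT-K1 (13 at an unadjusted p under 0.05 by limma) and 0 for the difference (16), all genes 1030 in HPB-ALL, 709 in KOPT-K1 and 251 for the difference, and probe sets 2 in HPB-ALL and 1 in KOPT-K1. Fits on the line's own arrays called 2 probe sets in HPB-ALL and 15 in KOPT-K1, and array weights called 10 in HPB-ALL. For the covariates and own-line fits the cause was not tested. Quantile normalization narrows the SAHM1 arrays and widens the DMSO arrays, so a call lost under it cannot decide whether the change stands.

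In the main fit 1846 genes were called in HPB-ALL, 3761 in KOPT-K1, 2231 for the mean and 3323 for the difference. With an array left out, members called ranged from 3 to 6 in HPB-ALL, 8 to 13 in KOPT-K1, 5 to 7 for the mean and 7 to 9 for the difference. All genes ranged from 913 (without HPB-ALL SAHM1 replicate 2) to 2012, from 2528 to 3885, from 1532 to 2202 and from 2341 to 3369. Probe sets ranged from 1 to 9 in HPB-ALL and from 15 to 25 in KOPT-K1. In HPB-ALL, all genes came to 915 without DMSO replicate 2, 996 without DMSO replicate 3, 1124 without SAHM1 replicate 1 and 1117 without SAHM1 replicate 3.

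Replicate numbers did not pair the samples: deviations of same-numbered arrays correlated between -0.0548 and 0.0676 in 18 pairs, none over 0.1, and those of other pairs between -0.0773 and 0.0748. With the replicate block 3 members were called in HPB-ALL, 10 in KOPT-K1, 5 for the mean and 9 for the difference, all genes were 1519, 3451, 1967 and 3012, and probe sets were 3 in HPB-ALL and 19 in KOPT-K1.

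The filter on low values was not run, since the ratios hold no levels. With 3 arrays per group and changes mostly under 0.5, many calls lie near the threshold. Signal over background cannot be read, so a change on a probe set without specific signal cannot be told from one with it.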
